A study of Mus musculus with 12 samples.

Results

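The 10 genes described here are genes of fat cells and of the storage, release and uptake of fat, and all 10 were found by symbol among the 23282 lines of a table of read counts from 12 mouse tumors. By general knowledge they were divided into 5 genes listed as largely restricted to fat cells (Adipoq, Cfd, Plin1, Plin4 and Lipe) and 5 that macrophages also express (Fabp4, Lpl, Cd36, Pparg and Plin2). In these tumors, Adipoq and Cfd were high together in 3 tumors, SFIH replicate 2 and Comb replicates 2 and 3, and low in Comb replicate 1. Plin1 was highest in the same 3 tumors, but had only 7 counts in SFIH replicate 2, against 4 in PD replicate 1. Plin4 and Lipe did not share that pattern. Fabp4, Lpl, Pparg and Cd36 were highest in Comb replicate 3, and Cd36 and Plin2 were also high in PD replicate 2, a tumor with only 2 Adipoq counts. No member passed an adjusted p-value of 0.05 between groups with edgeR, and up to 5 of them did so with DESeq2, as given below.

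The tumors were of MC38, a mouse colon carcinoma cell line injected subcutaneously into the right flank of female C57BL/6 mice, 6 weeks old and of the genotype WT, and they were taken on day 19. The 4 groups of 3 tumors each were Con, given saline with DMSO and Tween 80 and an IgG2a antibody, SFIH, given 50 mg/kg of SFIH each day and the IgG2a antibody, PD, given 200 μg of anti-PD-1 antibody 2 times a week, and Comb, given both. SFIH is a hexane fraction of Inula helenium root that is rich in sesquiterpene lactones, and the anti-PD-1 antibody blocks an inhibitory receptor of T cells. The design asks what each treatment, and the addition of SFIH to the antibody, did to expression in the tumor, and the sources do not say how the sequenced tumors were chosen.

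White fat cells keep triglyceride in a large droplet coated with perilipins, release fatty acids from it through lipases, and secrete hormones such as adiponectin and adipsin. Lipoprotein lipase frees fatty acids from circulating lipoproteins at the cell surface, CD36 takes them up, FABP4 carries them inside the cell, and the nuclear receptor PPARγ switches on many of these genes. Macrophages that take up lipid use several of the same proteins, so Fabp4, Lpl, Cd36, Pparg and Plin2 mark no single cell type in a whole tumor.

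Expression was read from the 3′ ends of transcripts, so a count does not scale with the length of the gene, and levels are given as CPM, counts per 1000000 counts of the same tumor. Total counts were between 7870741 and 12261032 per tumor, and a level of 3 counts, taken as the floor, corresponded to 0.245 to 0.381 CPM. In whole tumor RNA, more cells of a type and more RNA per cell cannot be told apart. The sources do not state that tumors numbered 1 to 3 came from separate mice, so the p-values measure the spread between these samples. The labels call the material tumor cells while the RNA was taken from tumor tissue, and the epithelial marker Cdx2 had 0 or 1 count in each of the 12 tumors, while Epcam reached 7.74 CPM in Comb replicate 3 and at most 2.24 CPM elsewhere. Comb replicate 3 stood apart from the other 11 tumors: its counts differed from those of Comb replicates 1 and 2 by a chi-square per degree of freedom of 388 and 277, against 11.4 to 62.1 for the other pairs within a group. Fold changes that it moved by more than 1.5 times are therefore also given without it.

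The 250 bases before the transcription start are shown for the members that were highest in the same 3 tumors, Adipoq, Plin1 and Cfd, and for the pair that was also high in PD replicate 2, Cd36 and Plin2. They were taken from RefSeq on GRCm38.p6, in which 8 of the 10 members have an entry, Fabp4 and Lpl being the others. Capitals mark matches on either strand to 3 motifs: CCAAT, the letters TTGCNNAA known from sites of C/EBP factors, and AGGTCA, the repeated unit of many nuclear receptor sites.
Adipoq, chr16:23146286-23146535, plus strand: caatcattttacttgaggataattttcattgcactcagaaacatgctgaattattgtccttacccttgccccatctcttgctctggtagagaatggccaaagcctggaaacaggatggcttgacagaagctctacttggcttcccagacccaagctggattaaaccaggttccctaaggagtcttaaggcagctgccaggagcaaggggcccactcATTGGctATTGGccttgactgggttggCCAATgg
Plin1, chr7:79732777-79733026, minus strand: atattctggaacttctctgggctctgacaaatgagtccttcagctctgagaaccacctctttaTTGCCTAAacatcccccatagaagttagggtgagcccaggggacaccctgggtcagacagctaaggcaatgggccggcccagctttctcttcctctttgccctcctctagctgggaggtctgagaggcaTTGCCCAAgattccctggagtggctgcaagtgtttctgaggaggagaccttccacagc
Cfd, chr10:79890603-79890852, plus strand: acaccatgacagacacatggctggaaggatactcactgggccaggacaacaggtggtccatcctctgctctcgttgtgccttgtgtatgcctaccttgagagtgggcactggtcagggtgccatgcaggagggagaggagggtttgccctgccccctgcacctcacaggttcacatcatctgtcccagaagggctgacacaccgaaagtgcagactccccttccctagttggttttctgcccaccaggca
Cd36, chr5:17835897-17836146, minus strand: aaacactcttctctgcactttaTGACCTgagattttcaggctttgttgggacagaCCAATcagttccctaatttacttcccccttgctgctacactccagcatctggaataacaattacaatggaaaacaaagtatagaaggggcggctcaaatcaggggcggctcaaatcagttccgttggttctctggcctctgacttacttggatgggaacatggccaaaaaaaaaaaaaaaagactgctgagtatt
Plin2, chr4:86670060-86670309, minus strand: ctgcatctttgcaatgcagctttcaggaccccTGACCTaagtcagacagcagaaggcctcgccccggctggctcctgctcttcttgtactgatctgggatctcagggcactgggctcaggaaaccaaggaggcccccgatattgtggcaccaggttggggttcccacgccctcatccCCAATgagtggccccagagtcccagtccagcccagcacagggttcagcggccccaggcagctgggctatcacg
The Adipoq promoter held 3 CCAAT matches, all within 34 bases of the start, and no other match. Plin1 held 2 matches to TTGCNNAA, beginning 187 and 58 bases before the start, and Cfd held none of the 3 motifs. The members that were highest in the same tumors thus shared no motif in this window. Cd36 and Plin2 each held 1 match to CCAAT and 1 to AGGTCA, the latter on the other strand and beginning 228 and 218 bases before the start. No match overlapped another in these 5 sequences. CCAAT occurred in 33.8%, TTGCNNAA in 9.56% and AGGTCA in 14.0% of 32851 promoters of the same length, and a match describes the letters only.

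Adipoq encodes adiponectin, a hormone made by fat cells. In replicates 1 to 3, the order used throughout, its counts were 36, 11 and 0 in Con, 2, 155 and 51 in the SFIH tumors, 14, 2 and 2 in the PD tumors and 8, 335 and 288 in the Comb tumors. The levels were 1.48 ± 1.67 CPM (SD, n = 3) in Con, 6.06 ± 6.35 in the SFIH tumors, 0.656 ± 0.736 in the PD tumors and 20.4 ± 17.4 in the Comb tumors, so the spread within SFIH and Comb was about as large as the mean. Comb replicate 1 lay within the Con range, and Comb replicates 2 and 3 together held 68.9% of the 904 Adipoq counts of all tumors. The log2 fold change between Con and Comb was 4.10 (SE 1.59, edgeR adjusted p = 0.145), and the groups overlapped. With single tumors left out, the value ranged from 3.52 without Con replicate 3 to 5.49 without Con replicate 1.

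Cfd encodes adipsin, the complement factor D that fat cells secrete. It was counted 165, 88 and 5 times in Con, 15, 741 and 133 times in the SFIH tumors, 205, 23 and 19 times in the PD tumors and 55, 1101 and 1346 times in the Comb tumors. The same 3 tumors led as for Adipoq, with 122.6 CPM in Comb replicate 3, 111.9 in Comb replicate 2 and 61.1 in SFIH replicate 2, against a median of 11.4 CPM over the 12 tumors. In the 7 tumors with at least 10 Adipoq counts, there were 2.61 to 14.6 Cfd counts for each Adipoq count, and 3.29 to 4.78 in the 3 leading ones. From Con to Comb its log2 fold change was 3.63 (SE 1.56, edgeR adjusted p = 0.177). With single tumors left out, it ranged from 3.05 without Comb replicate 3 to 4.41 without Con replicate 1.

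Plin1 encodes perilipin 1, the main droplet coat protein of fat cells that gates the access of lipases. It had 2, 0 and 0 counts in Con, 1, 7 and 0 in the SFIH tumors, 4, 0 and 0 in the PD tumors and 0, 16 and 37 in the Comb tumors, so that 8 of the 12 tumors were at the floor of 3 counts or below. Its 3 highest tumors were again Comb replicate 3, Comb replicate 2 and SFIH replicate 2. Plin1 was the member that did not pass the filter on low counts, and since all Con tumors were at the floor no fold change is given for it.

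Plin4 encodes perilipin 4, which coats small droplets in fat cells and also in muscle. Its levels were 34.3, 36.9 and 33.8 CPM in Con, 38.3, 34.5 and 30.9 in the SFIH tumors, 33.9, 24.8 and 36.3 in the PD tumors and 28.5, 19.8 and 17.0 in the Comb tumors. Plin4 was thus well above the floor in every tumor, also in Con replicate 3 where Adipoq was at 0, and it was lowest in Comb replicates 3 and 2, where Adipoq was high. The data went against its place among genes restricted to fat cells here. From Con to Comb it differed by a log2 fold change of −0.44 (SE 0.18, edgeR adjusted p = 0.154), and all 3 Comb tumors lay below all Con tumors, also after TMM scaling.

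Lipe encodes hormone-sensitive lipase, which releases fatty acids from the droplet. Its levels were 8.12, 4.47 and 6.68 CPM in Con, 7.26, 9.07 and 6.86 in the SFIH tumors, 9.46, 5.72 and 8.79 in the PD tumors and 7.92, 12.6 and 18.4 in the Comb tumors. SFIH replicate 2 was within the range of the PD tumors, unlike its Adipoq and Cfd levels, and the highest Lipe level was 2.29 times the median of the 12 tumors, against 25.7 times for Adipoq and 10.8 times for Cfd. Lipe had 67 counts in Con replicate 3, where Adipoq had 0, and 89 in SFIH replicate 1, where Adipoq had 2. As for Plin4, this went against a restriction to fat cells here, although Lipe was highest in Comb replicates 3 and 2. The log2 fold change between Con and Comb was 1.35 (SE 0.40), with an adjusted p of 0.0786 with edgeR and 0.0168 with DESeq2.

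**Figure D1:**
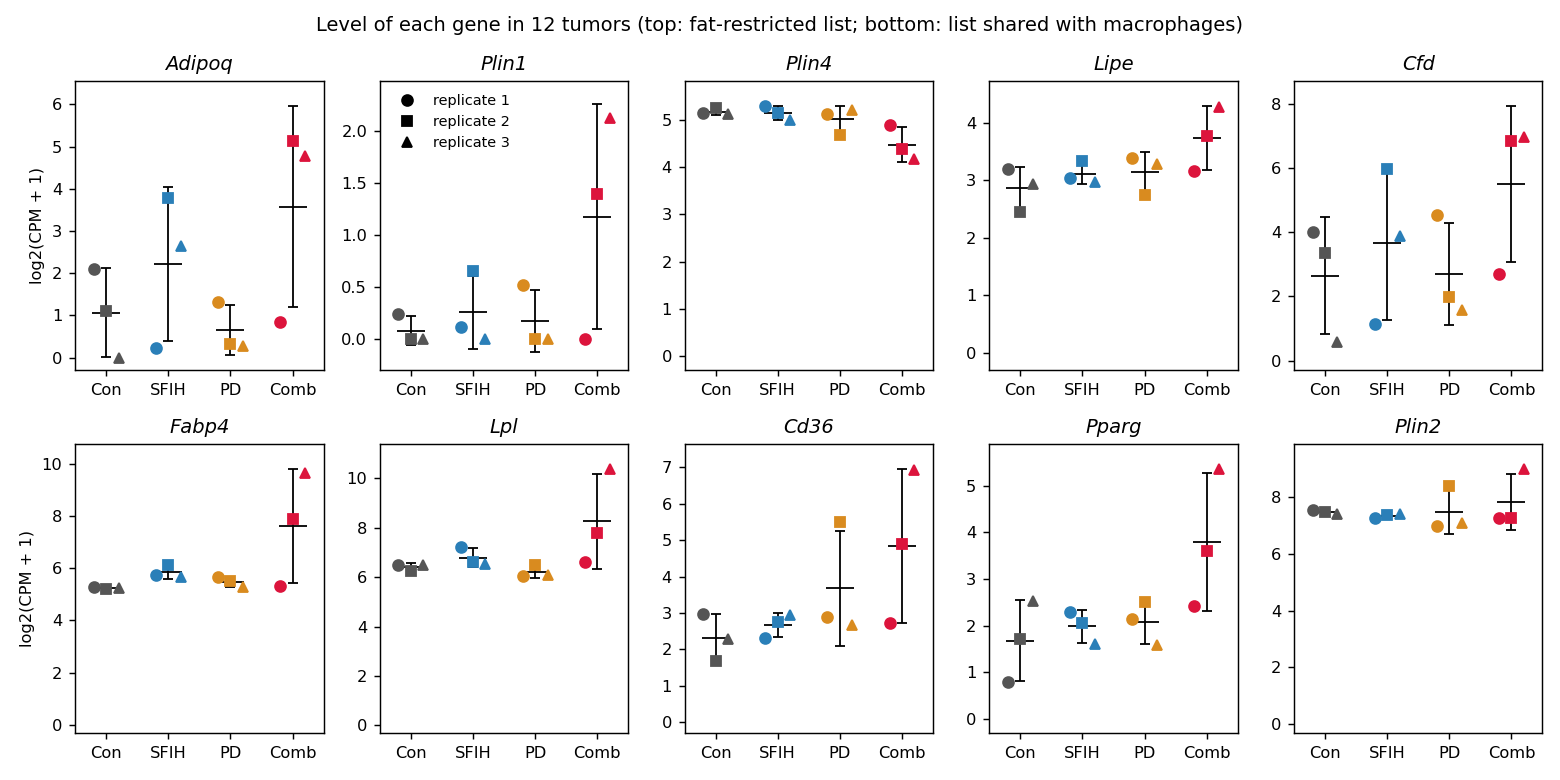
Level of each of the 10 genes as log2(CPM + 1) in the 12 tumors, by group, with a point per tumor (circle, square and triangle for replicates 1, 2 and 3) and the mean with SD of the 3 tumors as a black bar. Adipoq and Cfd are high in SFIH replicate 2 and Comb replicates 2 and 3, and Plin1 is high in Comb replicates 2 and 3 and near the floor elsewhere. Plin4 is lowest in Comb replicates 2 and 3 (19.8 and 17.0 CPM), and Cd36 and Plin2 also stand high in PD replicate 2 (44.1 and 330.5 CPM).

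Lpl encodes lipoprotein lipase. Its levels were 89.2, 74.3 and 89.3 CPM in Con, 149.2, 97.2 and 91.2 in the SFIH tumors, 65.0, 88.6 and 66.4 in the PD tumors and 97.5, 221 and 1311 in the Comb tumors. All 3 Comb tumors lay above all Con and all PD tumors, and Comb replicate 3 alone held 55.4% of the 25976 Lpl counts. In SFIH, the highest Lpl level was in replicate 1, where Adipoq had 2 counts, and not in replicate 2. The log2 fold change between Con and Comb was 3.13 (SE 0.81, edgeR adjusted p = 0.0686; DESeq2 adjusted p = 0.000658), and it was 1.13 (SE 0.33, edgeR adjusted p = 0.122) without Comb replicate 3.

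Fabp4 encodes the fatty acid binding protein of fat cells, which macrophages and the endothelium of small vessels express as well. It was at 38.3, 35.8 and 36.7 CPM in Con, 52.0, 69.3 and 49.5 in the SFIH tumors, 49.8, 44.5 and 38.1 in the PD tumors and 38.6, 232 and 795 in the Comb tumors. Comb replicate 1 exceeded the highest Con tumor only by 38.6 to 38.3 CPM, and in SFIH the highest level was in replicate 2, the tumor with most Adipoq of that group. From Con to Comb its log2 fold change was 3.70 (SE 0.84, edgeR adjusted p = 0.0665; DESeq2 adjusted p = 5.39e-05) and 2.11 (SE 0.52, edgeR adjusted p = 0.101) without Comb replicate 3.

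Cd36 encodes the fatty acid translocase, a scavenger receptor of macrophages, fat cells and vessels. Its levels were 6.84, 2.19 and 3.89 CPM in Con, 3.92, 5.77 and 6.75 in the SFIH tumors, 6.35, 44.1 and 5.34 in the PD tumors and 5.55, 28.8 and 121.0 in the Comb tumors. It was highest in Comb replicate 3, next in PD replicate 2 and then in Comb replicate 2, and the other 9 tumors were at 6.84 CPM or below, SFIH replicate 2 among them. The 9 endothelial markers summed to 93.8 to 172.5 CPM over all tumors, and PD replicate 2 (149.5 CPM), Comb replicate 2 (172.5 CPM) and Comb replicate 3 (162.6 CPM) were among the 4 highest. A pair of these markers, named after their values were seen, had the same 3 leading tumors in the same order as Cd36. Tek was at 7.74 CPM in Comb replicate 3, 4.57 in PD replicate 2, 2.13 in Comb replicate 2 and at most 0.832 elsewhere, and Cldn5 at 9.65, 3.43 and 3.35 CPM and at most 1.96 elsewhere. Kdr and Cdh5 of the same list went the other way in Comb replicate 3. Kdr was at 9.56 CPM there, the lowest of all tumors, and Cdh5 at 15.9 CPM, against 19.6 to 22.5 CPM in Con. The part of endothelium in the Cd36 level was not tested. The log2 fold change between Con and Comb was 4.01 (SE 1.18, edgeR adjusted p = 0.0785; DESeq2 adjusted p = 0.00126). Without Comb replicate 3 it was 2.21 (SE 0.93, edgeR adjusted p = 0.232), and DESeq2 then gave Cd36 no p-value.

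Pparg encodes PPARγ. It was at 0.730, 2.29 and 4.79 CPM in Con, 3.92, 3.13 and 2.05 in the SFIH tumors, 3.44, 4.70 and 1.99 in the PD tumors and 4.36, 11.1 and 40.2 in the Comb tumors. The Con tumors differed from each other more than 6-fold at 8, 22 and 48 counts, and Comb replicate 1 lay within their range. The log2 fold change between Con and Comb was 3.27 (SE 0.88, edgeR adjusted p = 0.0696; DESeq2 adjusted p = 0.0017) and 1.80 (SE 0.66, edgeR adjusted p = 0.184) without Comb replicate 3.

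Plin2 encodes perilipin 2, the droplet coat protein of most cell types. Its levels were 184.7, 176.4 and 168.8 CPM in Con, 151.9, 163.5 and 167.0 in the SFIH tumors, 123.4, 330.5 and 132.3 in the PD tumors and 152.6, 150.3 and 498 in the Comb tumors. PD replicate 2 and Comb replicate 3 stood above the other 10 tumors, and Comb replicate 2, second in Fabp4, Lpl and Pparg, did not. From Con to Comb the log2 fold change was 0.97 (SE 0.55, edgeR adjusted p = 0.284), and −0.06 (SE 0.37, edgeR adjusted p = 0.952) without Comb replicate 3.

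**Figure D2:**
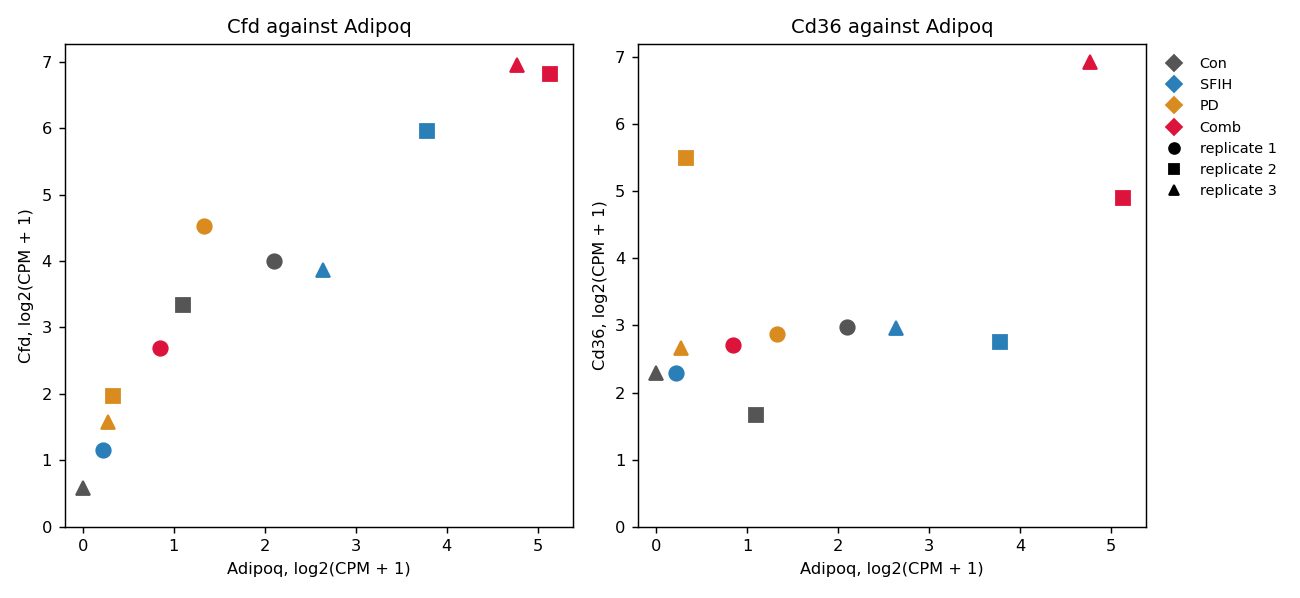
Cfd (left) and Cd36 (right) against Adipoq in the 12 tumors, all as log2(CPM + 1), with colors for the 4 groups and shapes for the replicates. The 3 tumors highest in Adipoq are also the 3 highest in Cfd, while Cd36 is high in PD replicate 2 at 0.254 CPM of Adipoq and not in SFIH replicate 2 at 12.8 CPM of Adipoq.

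The ratio of the shared members to Adipoq was not fixed. Among the tumors with at least 10 Adipoq counts, Lpl was counted 7.6 times per Adipoq count in SFIH replicate 2, 6.5 times in Comb replicate 2 and 49.98 times in Comb replicate 3. The corresponding Fabp4 counts were 5.42, 6.82 and 30.3, so Comb replicates 2 and 3, which were alike in Adipoq, were unlike in both. Ratios to Adipoq in Con are set by 36 and 11 Adipoq counts and are correspondingly uncertain.

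Macrophage markers were highest in Comb replicate 3, as Fabp4, Lpl, Cd36, Pparg and Plin2 were, and Plin2 did not share their high level in Comb replicate 2. The summed level of 12 macrophage markers, led by C1qb, was 629 to 1115 CPM in Con, 1049 to 1256 in SFIH and 1083 to 1998 in PD, where replicate 2 was highest. It was 1225, 3730 and 11510 CPM in Comb replicates 1 to 3. None of the 12 was at the floor in all tumors, and the 11 that were tested were all higher in Comb than in Con (median log2 fold change 2.83 against −0.03 over all genes). edgeR called 0 and DESeq2 11 of them, where DESeq2 called 14.2% of all genes, and the median was 1.59 without Comb replicate 3.

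Per 1000 macrophage marker counts of the same tumor, Lpl had 94.7, 118 and 80.1 counts in Con, 59.96, 44.3 and 45.1 in PD and 79.6, 59.3 and 113.9 in Comb, so on this scale all Comb tumors lay within or below the Con range. Pparg had 0.775, 3.64 and 4.29 counts in Con and 3.56, 2.97 and 3.49 in Comb, also within that range. Fabp4 had 40.7, 56.9 and 32.9 counts in Con and 31.5, 62.2 and 69.1 in Comb, where replicates 2 and 3 exceeded all Con tumors. Cd36 had 7.26, 3.47 and 3.49 counts in Con, 4.53, 7.71 and 10.5 in Comb and 22.1 in PD replicate 2, the highest of all tumors. Plin2 had 196, 280.4 and 151.4 counts in Con and 124.6, 40.3 and 43.3 in Comb, lower in all Comb tumors than in all Con tumors. The marker counts themselves were 6049 to 11178 in Con and 12368, 36705 and 126370 in Comb. Any gene that rose less than these markers falls on this scale, and Plin2 was at 150.3 CPM in Comb replicate 2 and 498 in Comb replicate 3. The markers did not rise alike. C1qb had 2056, 1247 and 2610 counts in Con and 40018 in Comb replicate 3, and Csf1r had 1511, 590 and 1361 and then 8100. Lpl, with 978, 714 and 895 and then 14394, and Pparg, with 8, 22 and 48 and then 441, rose more than Csf1r. Their place relative to Con thus depends on the markers summed. The fat-restricted pair did not keep to this scale in SFIH replicate 2, with 11.5 Adipoq and 55.2 Cfd counts per 1000, the highest of the 12 tumors. The summed macrophage marker level of that tumor was 1108 CPM, against 1256 and 1049 CPM in SFIH replicates 1 and 3. The part of macrophages in the levels of the members was not tested.

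**Figure D3:**
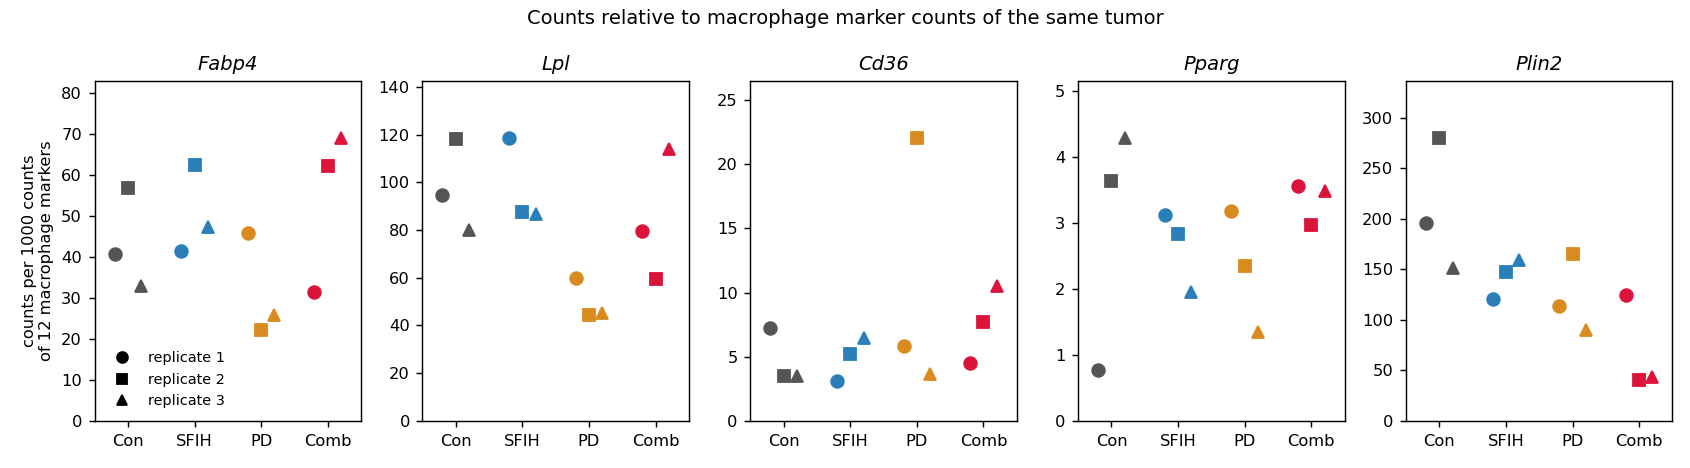
Counts of the 5 members that macrophages also express, per 1000 counts of 12 macrophage markers in the same tumor, with a point per tumor by group and replicate. For Lpl and Pparg the Comb tumors lie within or below the Con range (80.1 to 118 and 0.775 to 4.29), and Cd36 is highest in PD replicate 2 at 22.1. Plin2 is lowest in Comb replicates 2 and 3, the tumors with the most macrophage marker counts. The sum is led by C1qb, and the place of the Comb tumors depends on the markers summed.

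Markers of other tissues beside the tumor were also high in single tumors. The summed level of 13 skeletal muscle markers, led by Acta1, was 16.1 to 20.4 CPM in Con and 882.8, 12.7 and 7340 CPM in Comb replicates 1 to 3. Outside Comb it was also high in PD replicate 1 (185.3 CPM) and SFIH replicate 1 (70.2 CPM), and it was 11.6 to 25.1 CPM in the other SFIH and PD tumors. The Comb tumor with the second highest muscle level thus had 8 Adipoq counts, and the one with the highest Adipoq level had the lowest muscle level of the group. The 10 skin epithelium markers summed to 418 CPM in Comb replicate 3, 44.9 CPM in SFIH replicate 1 and 6.17 to 16.6 CPM elsewhere. SFIH replicate 2 and Comb replicate 2 thus carried high Adipoq without a high skin or muscle level, and Comb replicate 3 carried it with the highest level of both. The 9 fibroblast markers, led by Col1a2, summed to 798 to 2704 CPM in Con and SFIH, 2776 to 4698 in PD and 2214, 7599 and 11510 in Comb. From Con to Comb 7 of them were higher and 2 lower. Pdgfra and Pdgfrb were at 43.3 and 17.9 CPM in Comb replicate 3, against 71.4 to 84.9 and 32.5 to 59.5 in Con. The 7 epithelial markers summed to 86.8 CPM in Comb replicate 3 against 4.20 to 21.9 in the others. The 5 T cell markers summed to 17.8 to 28.8 CPM in Con, 17.7 to 30.6 in SFIH and 27.5 to 68.7 in PD, where replicate 2 was highest. They summed to 23.4, 80.1 and 197.5 CPM in Comb replicates 1 to 3. The part of these tissues in the members' levels was not tested.

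**Figure D4:**
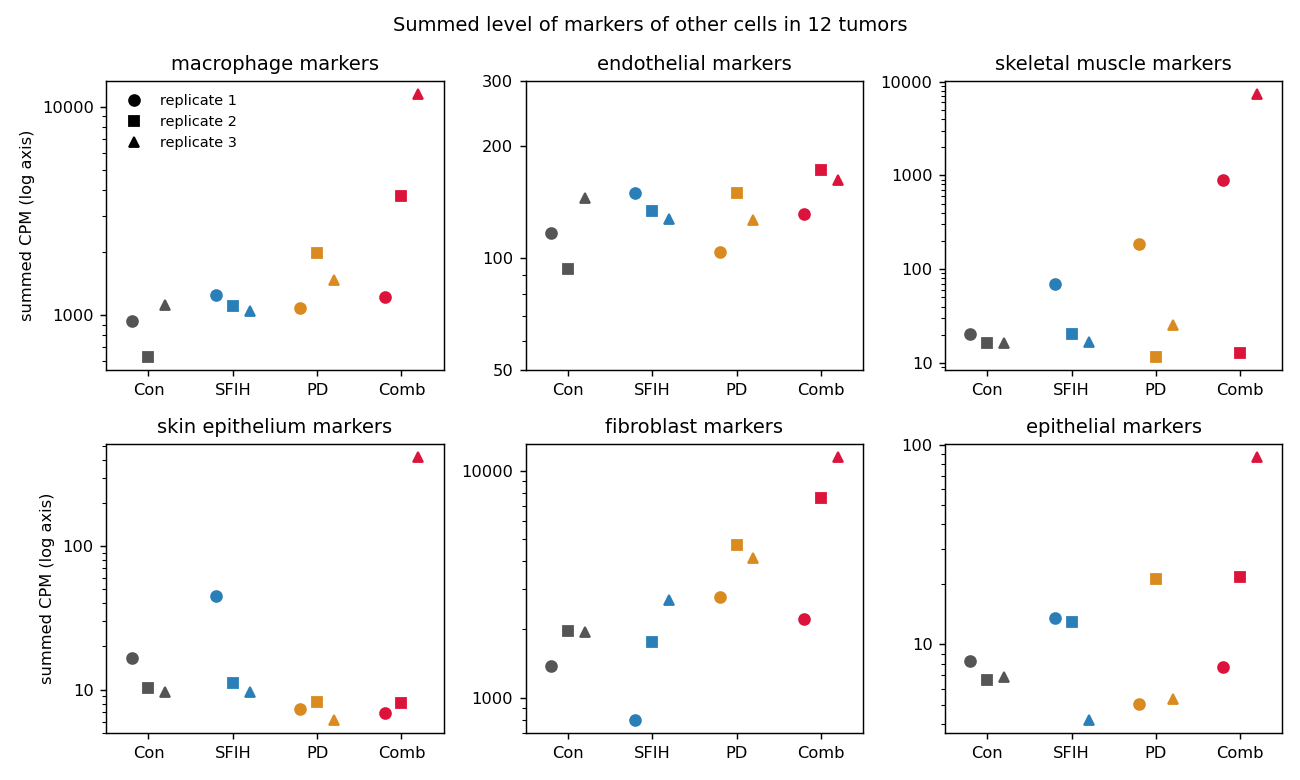
Summed CPM of the markers of 6 other cell types in the 12 tumors on log axes, with a point per tumor by group and replicate. Comb replicate 3 is highest for macrophage, skeletal muscle, skin, fibroblast and epithelial markers, and Comb replicate 2 is high for macrophage (3730 CPM) and fibroblast markers (7599 CPM) but not for muscle (12.7 CPM) or skin (8.13 CPM).

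The comparison of SFIH with Con asks what SFIH did alone. With edgeR, 0 of the 9 tested members had an adjusted p under 0.05, as did 0.0% of the 13464 genes tested (2.25% of genes and 0 members had an unadjusted p under 0.05, while DESeq2 called 0.0105% of genes and 0 members). All 3 SFIH tumors lay above all Con tumors for Fabp4, with a log2 fold change of 0.61 (SE 0.76), and for Lpl, with 0.40 (SE 0.75), and below them for Plin2, with −0.14 (SE 0.55). Of all genes tested, 16.4% did not overlap between these groups in either direction, and Plin2 did overlap after TMM scaling. Adipoq had a log2 fold change of 1.98 (SE 1.50), which was 0.89 without SFIH replicate 2 and 3.36 without Con replicate 1. For Cfd it was 1.56 (SE 1.46), and −0.11 without SFIH replicate 2. Cd36 and Pparg differed by 0.34 (SE 1.10) and 0.23 (SE 0.84), less than their standard errors.

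The comparison of PD with Con, which uses the same Con tumors, asks what the antibody did alone. No member passed with edgeR (0.0% of all genes; 3.99% and 0 members at an unadjusted p under 0.05, and 0.0105% of genes but 0 members with DESeq2), and no member was free of overlap between the groups, against 20.6% of all genes. Cd36 had the largest difference, a log2 fold change of 2.25 (SE 1.12, edgeR unadjusted p = 0.0682), which rested on PD replicate 2 and was 0.49 without it. Plin2 moved with the same tumor, from 0.27 (SE 0.55) to −0.42 without it. For Adipoq the log2 fold change was −1.09 (SE 1.67), and it was 0.29 without Con replicate 1 and −2.56 without PD replicate 1.

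The comparison of Comb with Con gave the largest differences of the members, again against the same Con tumors. With edgeR 0 of 9 members passed the adjusted threshold (0.0% of all genes). At an unadjusted p under 0.05 there were 8 members, 7 higher and Plin4 lower, against 25.3% of all genes, of which 18.0% were higher. With DESeq2, Lipe, Fabp4, Lpl, Cd36 and Pparg rose at an adjusted p under 0.05, where 14.2% of all genes passed, and Adipoq (adjusted p = 0.080), Cfd (0.083), Plin4 (0.095), Plin1 (0.116) and Plin2 (0.217) did not. Fabp4 and Lpl were higher and Plin4 lower without overlap, against 29.8% of all genes.

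These calls depended on single Comb tumors. Without Comb replicate 1, the tumor with few Adipoq counts, edgeR called 8 members, Adipoq, Plin1, Lipe, Fabp4, Lpl, Cd36 and Pparg higher and Plin4 lower, where 28.5% of all genes passed. Without Comb replicate 3, edgeR called 0 members and 0.0367% of genes, and DESeq2 called Fabp4 (log2 fold change 2.14, adjusted p = 0.0262) and Lpl (1.15, adjusted p = 0.0237), where 5.25% of all genes passed. The fit without Comb replicate 3 was added to DESeq2 after the counts had been seen.

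The comparison of Comb with PD asks what SFIH added to the antibody. No member passed with edgeR (0.0% of all genes), with adjusted p-values from 0.243 to 0.482, and 6 of 9 were higher at an unadjusted p under 0.05, against 12.9% of all genes higher and 18.0% in either direction. DESeq2 called Fabp4 (log2 fold change 3.37, adjusted p = 0.00377), Lpl (3.26, adjusted p = 0.00434) and Pparg (2.79, adjusted p = 0.0361), against 2.94% of all genes. Only Lpl was free of overlap, against 12.7% of all genes. Without Comb replicate 3, DESeq2 called 0 members and 0.272% of all genes, and it gave no adjusted p for Adipoq, Plin1, Lipe, Cd36 and Pparg, which could therefore not be called. edgeR then gave log2 fold changes of 1.75 (SE 0.52) for Fabp4, 1.22 (SE 0.33) for Lpl and 1.29 (SE 0.65) for Pparg. Without Comb replicate 1, edgeR called Adipoq, Lipe, Fabp4, Lpl and Pparg, where 15.2% of all genes passed.

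For Cd36, the difference between Comb and PD was 1.76 on the log2 scale (SE 1.07, edgeR adjusted p = 0.372). It was −0.03 without Comb replicate 3 and 3.51 without PD replicate 2, so a single tumor on either side set its size. The interaction of SFIH with the antibody was 2.73 (SE 1.09) for Fabp4, 2.82 (SE 1.08) for Lpl and 2.53 (SE 1.18) for Pparg, each with an edgeR adjusted p of 0.894, and 0 of 9 members passed (0.0% of all genes; 2.55%, and Fabp4 and Lpl among the members, at an unadjusted p under 0.05; 0.00526% of genes and 0 members with DESeq2). Without Comb replicate 3 the interaction was 1.14 (SE 0.71) for Fabp4, 0.82 (SE 0.45) for Lpl and 1.06 (SE 0.90) for Pparg, and none passed with edgeR.

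**Figure D5:**
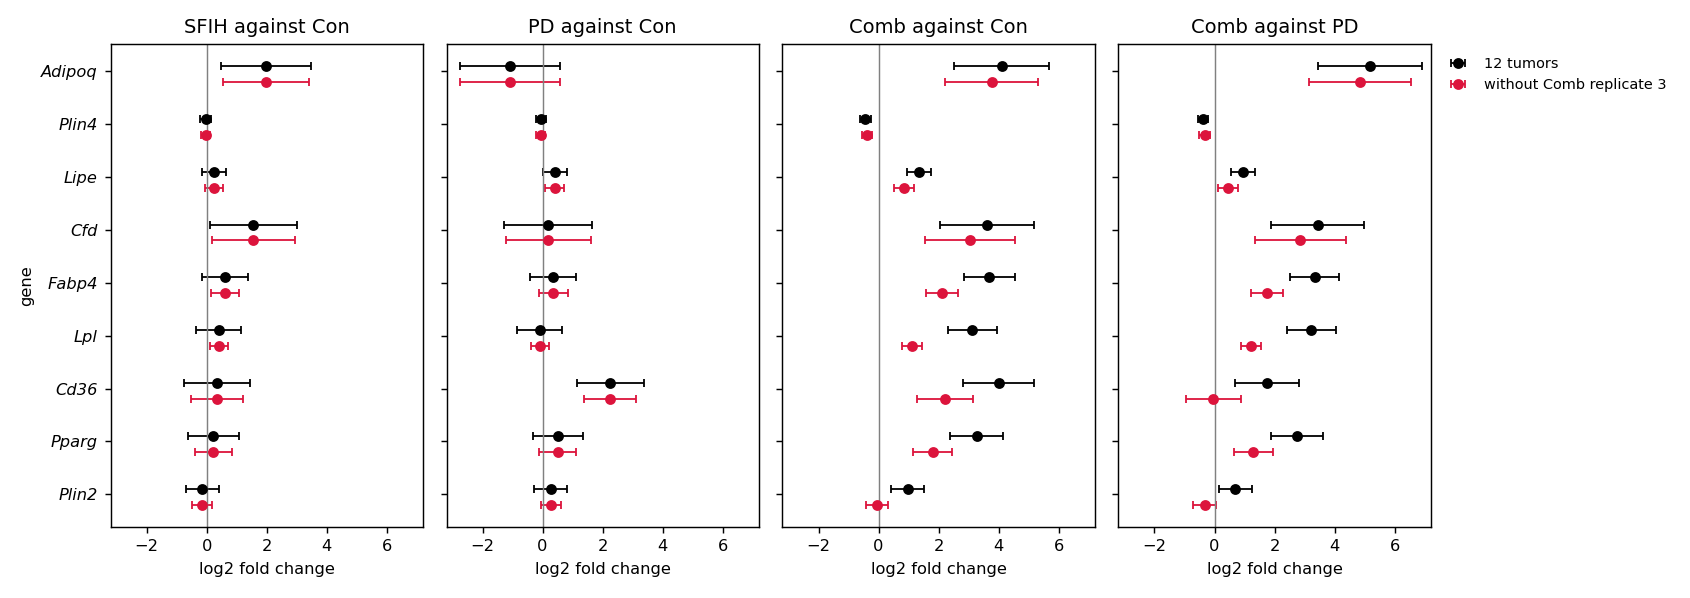
log2 fold change with its standard error for the 9 tested genes in 4 comparisons, from edgeR with all 12 tumors (black) and without Comb replicate 3 (red). In Comb against Con, the change of Lpl drops from 3.13 to 1.13 and that of Plin2 from 0.97 to −0.06 when Comb replicate 3 is left out, while Adipoq goes from 4.10 to 3.77.

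Among 22 other genes of fat cells, 21 were in the table and 9 passed the filter on low counts, so 12 were too low to test. Of the 9, 8 were higher in Comb than in Con, where 48.05% of all genes were higher. At an unadjusted p under 0.05 with edgeR, 5 were higher, against 18.0% of all genes. The median log2 fold change was 2.68, against −0.03 over all genes. edgeR called 0 and DESeq2 5 of the 9, against 14.2% of all genes, and the median was 1.46 without Comb replicate 3. Acvr1c, a receptor of the TGF-β family in fat cells, and Ucp1, the uncoupling protein of brown fat, were at 3 counts or fewer in all 12 tumors.

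Retn, the gene of the fat cell hormone resistin, had 12, 1 and 1 counts in Con, 0, 27 and 2 in the SFIH tumors, 8, 4 and 0 in the PD tumors and 2, 175 and 254 in the Comb tumors. Thrsp, a regulator of lipid synthesis, had 13, 2 and 3 counts in Con, 3, 30 and 1 in the SFIH tumors, 9, 0 and 10 in the PD tumors and 9, 182 and 239 in the Comb tumors. Both thus led in the same 3 tumors as Adipoq, with log2 fold changes from Con to Comb of 5.29 (SE 1.74, edgeR adjusted p = 0.0987) and 4.92 (SE 1.43, edgeR adjusted p = 0.0765). Without Con replicate 1 these were 7.31 and 6.09, and without Comb replicate 3 they were 4.55 and 4.29. Gpd1, which makes the glycerol backbone of triglycerides, had 2 to 6 counts in Con and 22, 59 and 143 in Comb (log2 fold change 4.78, SE 1.07, edgeR adjusted p = 0.0665, and 3.82 without Comb replicate 3). Cebpa, a transcription factor of fat cells and of myeloid cells, had 32 to 68 counts in Con, 63 to 84 in the SFIH tumors, 59 to 86 in the PD tumors and 58, 161 and 498 in the Comb tumors. Cebpa differed by a log2 fold change of 2.68 (SE 0.68, edgeR adjusted p = 0.0671), and by 1.46 without Comb replicate 3. Dgat2, the last enzyme of triglyceride synthesis, had 77 to 101 counts in Con, 33 to 45 in PD and 81, 49 and 135 in Comb, with a log2 fold change from PD to Comb of 1.20 (SE 0.40, edgeR adjusted p = 0.243). Slc2a4, the insulin-responsive glucose transporter of fat and muscle, was named after its values were seen: it had 0 to 10 counts in 11 tumors and 177 in Comb replicate 3.

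Of 27 other genes of lipid uptake, efflux and droplets, 25 were tested. From Con to Comb 18 were higher and 7 lower, where 48.05% of all genes were higher. Their median log2 fold change was 0.50, against −0.03 over all genes. At an unadjusted p under 0.05, 9 were higher and 4 lower, 0 passed with edgeR, and DESeq2 called 9, of which 7 were higher, against 25.3% of all genes at such an unadjusted p and 14.2% with DESeq2. Without Comb replicate 3, 14 were higher and 11 lower, where 49.24% of all genes were higher. The median was then 0.21, against −0.007 over all genes. At an unadjusted p under 0.05 there were 4 higher and 5 lower, and the share of all genes at such a p is not given for that fit. Msr1, the macrophage scavenger receptor, had 271 to 502 counts in Con, 404 to 539 in the SFIH tumors, 482 to 612 in the PD tumors and 621, 734 and 1346 in the Comb tumors (log2 fold change 1.52, SE 0.36, edgeR adjusted p = 0.0665). The cholesterol exporters Abca1 and Abcg1 had log2 fold changes of 2.49 (SE 0.73, edgeR adjusted p = 0.0785) and 2.66 (SE 0.70, edgeR adjusted p = 0.0686), and of 1.52 and 1.38 without Comb replicate 3. Abca1 was at 152 to 235 counts in Con, at 545 in PD replicate 2 and at 129, 823 and 1722 in Comb, so it stood high in PD replicate 2 like Cd36. Mgll, the lipase of monoglycerides, had 39 to 63 counts in Con and 61, 253 and 622 in Comb (log2 fold change 2.86, SE 0.72, edgeR adjusted p = 0.0671, and 1.79 without Comb replicate 3). Vldlr, a lipoprotein receptor, went the other way with 660 to 1025 counts in Con, 303 in PD replicate 2 and 377, 334 and 102 in Comb, a log2 fold change of −1.44 (SE 0.42, edgeR adjusted p = 0.0774).

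The likeness of patterns was described by Pearson's r of log2(CPM + 1) over the 12 tumors among 13023 genes, with no test, since the same few high tumors set each value. The genes outside the 10 members most like Adipoq were Cidec (r = 0.966, Spearman's rho = 0.96), Gm2083 (0.94, 0.951), Fam32a (0.937, 0.783), Mup2 (0.926, 0.895) and Mup10 (0.917, 0.916). Fam32a spanned only 94.6 to 133.2 CPM over the 12 tumors, since r does not measure the size of a change. Cidec, which fuses droplets in white fat cells, was counted 46, 86 and 48 times in SFIH replicate 2 and Comb replicates 2 and 3 and 0 to 14 times elsewhere. Counts of the major urinary protein genes Mup2 and Mup10 are uncertain because the copies of this family are nearly identical. Gm2083 and Mup2 were near each other at 12.6 and 12.4 CPM in SFIH replicate 2, 36.1 and 34.5 in Comb replicate 2 and 68.5 and 75.0 in Comb replicate 3. They differed more in PD replicate 2, at 0.381 and 1.65 CPM. Gm2083, Mup2 and Mup10 may therefore not be separate matches. Of the members, Cfd was closest to Adipoq (r = 0.953, rho = 0.965), followed by Fabp4 (0.806, 0.643) and Lipe (0.725, 0.629), while Plin2 had 0.309 and Plin4 −0.671.

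Cd36 was most like another set, Hpgd (r = 0.975, rho = 0.746), Plek (0.968, 0.748), Chrdl1 (0.965, 0.855), Smpdl3a (0.961, 0.622) and Hacd4 (0.959, 0.713). Hpgd, which degrades prostaglandins, was at 4.83 CPM in PD replicate 2, 3.66 in Comb replicate 2, 9.47 in Comb replicate 3 and at most 0.645 elsewhere. Smpdl3a, a phosphodiesterase of macrophages, was at 33.7, 33.1 and 149.7 CPM in the same 3 tumors and at 13.3 or below in the rest. The r of Cd36 with Adipoq was 0.565, and with Plin4 it was −0.928.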

How the data were processed

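For each of 12 MC38 tumors the authors deposited raw read counts per gene symbol, obtained with a kit for 3′ mRNA ends (QuantSeq) and single-end reads of 75 bases (NextSeq 500). The aligner, genome build and annotation are not given in the sources used here. Samples were grouped by their labels, and columns were matched by sample descriptions. No 2 columns were alike, and no line lacked a gene name.

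Levels are CPM on total counts (median total 9932321), which include the ribosomal precursor Rn45s (4.28 to 17.1% of counts). Groups were compared with the two-sided quasi-likelihood test of edgeR 4.0.16 (R 4.3.3) in 1 fit of all tumors, after filterByExpr and TMM normalization, with Benjamini-Hochberg adjustment over 13464 genes and a threshold of 0.05. Figures and likeness used a pseudocount of 1, and likeness required 10 counts on average. Genes from the 2 lipid lists were named where they passed the threshold or, as none did, by the 5 smallest unadjusted p-values of each list. Any other gene was chosen after its values were seen or as a pattern match. The members and the 11 lists (125 symbols, 123 in the table) were chosen with earlier results of these data known. Reads carried no molecular identifiers, so counting error is a lower limit. The scripts were tested on simulated data. Alternatives were DESeq2 1.42.0, no TMM, no filter, only the groups compared, a replicate block, other totals for CPM, and each tumor left out in turn.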

Additional observations from a re-analysis of the deposited data

How the results depend on the processing

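DESeq2 in place of edgeR moved the number of genes past the threshold from 0 to 2 in SFIH against Con, 2 in PD against Con, 2073 in Comb against Con, 408 in Comb against PD and 1 in the interaction, and the number of members from 0 to 5 in Comb against Con and 3 in Comb against PD. DESeq2 without the third Comb tumor, chosen after the counts were seen, gave 53, 76, 729 and 21 genes in the first 4 comparisons and 2 members in Comb against Con. In that fit the log2 fold change of Plin2 was −0.039 in Comb against Con, −0.32 in Comb against PD and −0.18 in the interaction, and that of Cd36 was −0.020 in Comb against PD and −0.37 in the interaction.

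With each tumor left out in turn, edgeR called 0 to 3943 genes and 0 to 8 members in Comb against Con and 0 to 2100 genes and 0 to 5 members in Comb against PD, the highest numbers without Comb replicate 1; without Comb replicate 3 there were 5 genes in Comb against Con. The log2 fold changes that changed sign ranged, in SFIH against Con, from −0.097 to 0.017 for Plin4, −0.11 to 2.34 for Cfd and −0.22 to 0.95 for Pparg. In PD against Con they ranged from −2.56 to 0.29 for Adipoq, −0.14 to 0.053 for Plin4, −1.67 to 0.96 for Cfd, −0.30 to 0.0017 for Lpl and −0.42 to 0.53 for Plin2. For Plin2 the range was −0.056 to 1.32 in Comb against Con, −0.33 to 1.37 in Comb against PD and −0.19 to 1.51 in the interaction, and for Cd36 it was −0.035 to 3.51 in Comb against PD and −0.37 to 3.16 in the interaction. The cause was not tested.

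Fits with no filter, with no TMM, or with only the groups compared called 0 members. Without TMM the median log2 fold change of all genes was −0.29 in Comb against Con and −0.16 in Comb against PD, and no member changed its sign. The replicate numbers did not pair the tumors: of 18 pairs with the same number in different groups, 6 had a correlation of deviations over 0.1 (−0.235 to 0.361), and 4 of 12 tumors correlated best with their own number. With the replicate block, 0 genes passed in each comparison, and no other call changed. At 0 to 37 counts a tumor, differences in Plin1 were not resolved at this depth.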
